A study of Mus musculus with 6 samples.

Results

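The genes described here are Egln3, Slc16a3, Ankrd37 and P4ha2, chosen by symbol as hypoxia-inducible genes, and all 4 of them are among the 714 genes of the table used here. Messenger RNA was sequenced from 6 libraries of mouse bone marrow-derived macrophages, 3 from SENP8+/- cells and 3 from wild type cells. Both genotypes were of the strain C57BL/6, were grown out of bone marrow for 6 days in medium with 10 ng/ml of the myeloid growth factor GM-CSF, and were given beads coated with mouse CD47, the surface protein that binds SIRPA on macrophages and restrains engulfment. RNA was extracted 24 h into this exposure, which both groups share, and cells without it were not analysed here. The sample titles call the SENP8+/- libraries KO, while the genotype label names a heterozygote, and the labels do not say which change the altered allele carries. The labels used here give no age or sex of the mice and do not say whether marrow was pooled. Nor do they say that each library had its own mouse or culture, so the p-values speak only of the spread among these libraries, which may be technical.

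Hypoxia-inducible factor (HIF) is a transcription factor whose alpha subunits are made continuously and destroyed while oxygen is present. Prolyl hydroxylases of the EGLN family mark the alpha subunit, the VHL protein recognises the mark, and a ligase built on the cullin CUL2 attaches ubiquitin to it. Cullin ligases work when the ubiquitin-like protein NEDD8 is attached to the cullin, and SENP8 is a protease that processes NEDD8 and removes it from proteins. In macrophages HIF is known for switching on glycolysis and parts of the inflammatory response. Egln3 encodes one of those prolyl hydroxylases and is itself induced by HIF. Slc16a3 encodes the lactate exporter MCT4, Ankrd37 a small ankyrin repeat protein, and P4ha2 a catalytic subunit of the enzyme that hydroxylates prolines in collagen.

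The promoters are printed because HIF binds the short core ACGTG, the hypoxia response element, and because the 4 genes were lower in the same genotype. Each line gives 300 bases from RefSeq (GRCm38.p6) on the strand of the gene, 250 before and 50 from the transcript start onward. Capitals mark ACGTG and the variant core GCGTG, each searched on both strands. The windows are chr12:54203825-54204124 (minus strand) for Egln3, chr11:120948817-120949116 (plus strand) for Slc16a3, chr8:45999801-46000100 (minus strand) for Ankrd37 and chr11:54100674-54100973 (plus strand) for P4ha2.
Egln3: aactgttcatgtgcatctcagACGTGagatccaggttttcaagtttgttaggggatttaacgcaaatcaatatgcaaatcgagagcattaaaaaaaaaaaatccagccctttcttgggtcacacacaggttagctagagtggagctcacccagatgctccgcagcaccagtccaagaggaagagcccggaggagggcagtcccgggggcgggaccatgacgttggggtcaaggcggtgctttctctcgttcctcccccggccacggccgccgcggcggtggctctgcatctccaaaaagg
Slc16a3: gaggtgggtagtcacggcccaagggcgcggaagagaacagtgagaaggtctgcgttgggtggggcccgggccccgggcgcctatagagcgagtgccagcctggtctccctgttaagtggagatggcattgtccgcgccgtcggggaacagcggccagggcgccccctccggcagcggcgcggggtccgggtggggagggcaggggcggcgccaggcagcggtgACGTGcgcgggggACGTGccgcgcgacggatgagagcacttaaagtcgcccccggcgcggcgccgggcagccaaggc
Ankrd37: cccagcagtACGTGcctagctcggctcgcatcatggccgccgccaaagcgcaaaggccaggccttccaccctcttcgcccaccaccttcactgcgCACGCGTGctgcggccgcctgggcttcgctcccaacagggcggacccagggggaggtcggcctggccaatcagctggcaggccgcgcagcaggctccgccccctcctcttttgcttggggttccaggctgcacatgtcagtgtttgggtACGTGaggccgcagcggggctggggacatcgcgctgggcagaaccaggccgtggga
P4ha2: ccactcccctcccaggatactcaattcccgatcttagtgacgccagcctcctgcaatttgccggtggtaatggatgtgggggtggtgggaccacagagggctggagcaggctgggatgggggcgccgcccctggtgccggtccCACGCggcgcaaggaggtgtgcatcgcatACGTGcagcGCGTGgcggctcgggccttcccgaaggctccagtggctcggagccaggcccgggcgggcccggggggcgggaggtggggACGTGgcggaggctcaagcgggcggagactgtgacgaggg

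All 4 windows held ACGTG, against 19.6% of the 32851 RefSeq windows and 25.5% of the 12919 windows whose G+C content lay within the range of these 4 (54.7% to 73.3%). Of the 714 genes of the table, 492 had 621 windows, and 18.5% of these windows held ACGTG. The share was 18.7% over 203 windows of genes lower in SENP8+/- with an adjusted p under 0.05 in the authors' deposited table. The 4 genes were chosen as hypoxia-inducible, so other hypoxia targets are the nearer comparison. In a list of 46 hypoxia target genes, which holds Egln3, Ankrd37 and P4ha2, 33 genes had 43 windows, and 55.8% of these windows held ACGTG. Egln3 had 1 match, which began 229 bases before the start. Slc16a3 had 2 matches close together, which began 27 and 14 bases before the start. Ankrd37 had 2, beginning 241 and 6 bases before the start, and P4ha2 had 2, beginning 78 bases before and 10 bases after it. The variant core stood in the windows of Ankrd37 and P4ha2, with 2 matches each. It stood in 32.4% of all windows, 51.2% of those within the G+C range and 62.8% of those of the hypoxia target list. The 2 matches in Ankrd37 overlapped each other on opposite strands. A match of 5 letters describes the sequence and does not show binding, which was not measured. The RefSeq start of Ankrd37 lies 5857 bases downstream of the gene start in the table, that of P4ha2 829 bases and that of Slc16a3 587 bases, so these windows cover 1 start site of each gene.

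**Figure D1:**
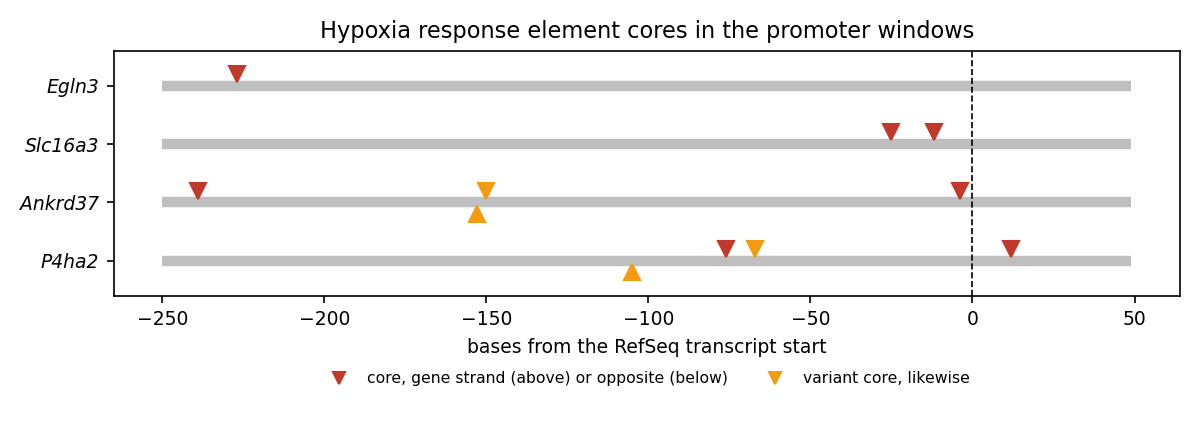
Positions of the hypoxia response element core (red) and its variant (orange) in the promoter windows of the 4 genes, with bases from the RefSeq transcript start on the x axis. Markers above a bar are on the strand of the gene and those below on the opposite strand; all 4 windows hold the core, 1 time in Egln3 and 2 times in each of the others.

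At the authors' scaling all 4 genes were lower in SENP8+/- macrophages than in wild type (rescaling on the listed genes turned the sign of Slc16a3), at 18.2% of the wild type mean for Egln3, 30.1% for Ankrd37, 39.6% for P4ha2 and 49.05% for Slc16a3. Egln3, Slc16a3 and Ankrd37 fell, that is, they had an adjusted p under 0.05 in the authors' deposited table, and P4ha2 did not pass. The table lists genes that the authors' test gave an unadjusted p under 0.05 and an absolute log2 fold change of at least 1, so a difference between genotypes is a condition for being listed. Among the 714 listed genes 79.7% lay lower in SENP8+/-, 33.9% fell (1.65% of the 14694 genes in the authors' correction), and in 70.6% all 3 SENP8+/- values lay below all 3 wild type values. The median log2 fold change in the authors' deposited table was -1.53 for the 4 genes, against -1.48 for all listed genes and -1.71 for the 569 that lay lower, so neither the shared direction nor the median sets the 4 apart from the list. Values are normalised counts, reads over the size factor of the library (0.933 to 1.14), and are given below as mean ± SD with n = 3 libraries per genotype. Reads over the listed genes came to 205957 to 217286 per SENP8+/- library and 439026 to 491156 per wild type library. Total depth is unknown here, since these sums hold listed genes alone. Senp8 itself is not analysed here, and its level could not be used to check the labels.

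Egln3, the HIF prolyl hydroxylase, had the largest difference of the 4. Its normalised counts were 54.6, 37.2 and 52.5 in SENP8+/- replicates 1, 2 and 3, and 263, 321 and 208 in wild type replicates 1, 2 and 3. The genotypes did not overlap, and the lowest wild type library stood 3.81-fold above the highest SENP8+/- library. The mean was 48.1 ± 9.47 in SENP8+/- and 264 ± 56.5 in wild type, a 5.49-fold difference. The log2 fold change was -2.46 in the authors' deposited table (adjusted p = 3.44e-12). Fitted with limma to log2(normalised count + 1) over all listed genes, it was -2.43 ± 0.33 (SE; adjusted p = 0.00275), and 20.9% of the listed genes passed limma as lower. The limma call was lost without SENP8+/- replicate 2 (adjusted p = 0.0551) and without wild type replicate 1 (adjusted p = 0.110). Of the 569 listed genes that lay lower, 146 had a more negative log2 fold change in the authors' deposited table. Egln3 (ENSMUSG00000035105) lies on the minus strand of chromosome 12 from 54178981 to 54203860, and no other gene of the GENCODE M21 annotation overlaps it.

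Slc16a3, the lactate exporter, was the most abundant of the 4 and had the smallest difference. Its normalised counts were 924, 707 and 922 in SENP8+/- replicates 1, 2 and 3, and 2057, 1712 and 1437 in wild type replicates 1, 2 and 3. The genotypes did not overlap, although the lowest wild type library stood only 1.55-fold above the highest SENP8+/- library. The mean was 851 ± 125 in SENP8+/- and 1736 ± 311 in wild type, a 2.04-fold difference close to the limit for being listed. The log2 fold change was -1.03 in the authors' deposited table (adjusted p = 0.00243) and -1.02 ± 0.27 by limma (SE; adjusted p = 0.104), and its sign turned to 0.25 when the libraries were rescaled on the listed genes, which were selected for a difference. Of the 569 lower genes 551 had a more negative log2 fold change in the authors' deposited table. Slc16a3 (ENSMUSG00000025161) lies on the plus strand of chromosome 11 from 120948480 to 120960868, with no overlapping gene in GENCODE M21.

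Ankrd37, an ankyrin repeat gene known as a HIF target, fell but varied most among the wild type libraries. Its normalised counts were 44.3, 30.7 and 28.9 in SENP8+/- replicates 1, 2 and 3, and 99.0, 179 and 66.4 in wild type replicates 1, 2 and 3. Wild type replicate 2 stood far above the other wild type libraries, and the lowest wild type value was still above the highest SENP8+/- value. The mean was 34.6 ± 8.39 in SENP8+/- and 115 ± 58.2 in wild type, a 3.32-fold difference, or 2.39-fold when wild type replicate 2 was left out. The log2 fold change was -1.73 in the authors' deposited table (adjusted p = 0.00916) and -1.61 ± 0.41 by limma (SE; adjusted p = 0.0920). Ankrd37 (ENSMUSG00000050914) lies on the minus strand of chromosome 8 from 45996902 to 46005707. In GENCODE M21 its exons cover 1539 bases and share 349 of them with Lrp2bp and 57 with Ufsp2, both on the opposite strand. The sources used here do not say whether the libraries keep strand, and without strand the reads in the shared bases cannot be told apart.

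P4ha2, the collagen prolyl hydroxylase subunit, had the fewest reads and did not pass the threshold. Its normalised counts were 23.7, 24.2 and 10.7 in SENP8+/- replicates 1, 2 and 3, and 52.5, 52.8 and 42.8 in wild type replicates 1, 2 and 3. The wild type values lay close together, SENP8+/- replicate 3 stood below the other SENP8+/- libraries, and the genotypes did not overlap. The SENP8+/- replicate 3 value rests on 10 reads, with an exact 95% Poisson interval of 5.14 to 19.7 normalised counts, which covers counting error only. The lowest wild type library had 49 reads and an interval of 31.7 to 56.6 normalised counts. The mean was 19.5 ± 7.64 in SENP8+/- and 49.4 ± 5.68 in wild type, a 2.53-fold difference, or 2.06-fold without SENP8+/- replicate 3. The log2 fold change was -1.33 in the authors' deposited table (adjusted p = 0.0830) and -1.37 ± 0.40 by limma (SE; adjusted p = 0.174). P4ha2 (ENSMUSG00000018906) lies on the plus strand of chromosome 11 from 54100095 to 54131665, with no overlapping gene in GENCODE M21.

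**Figure D2:**
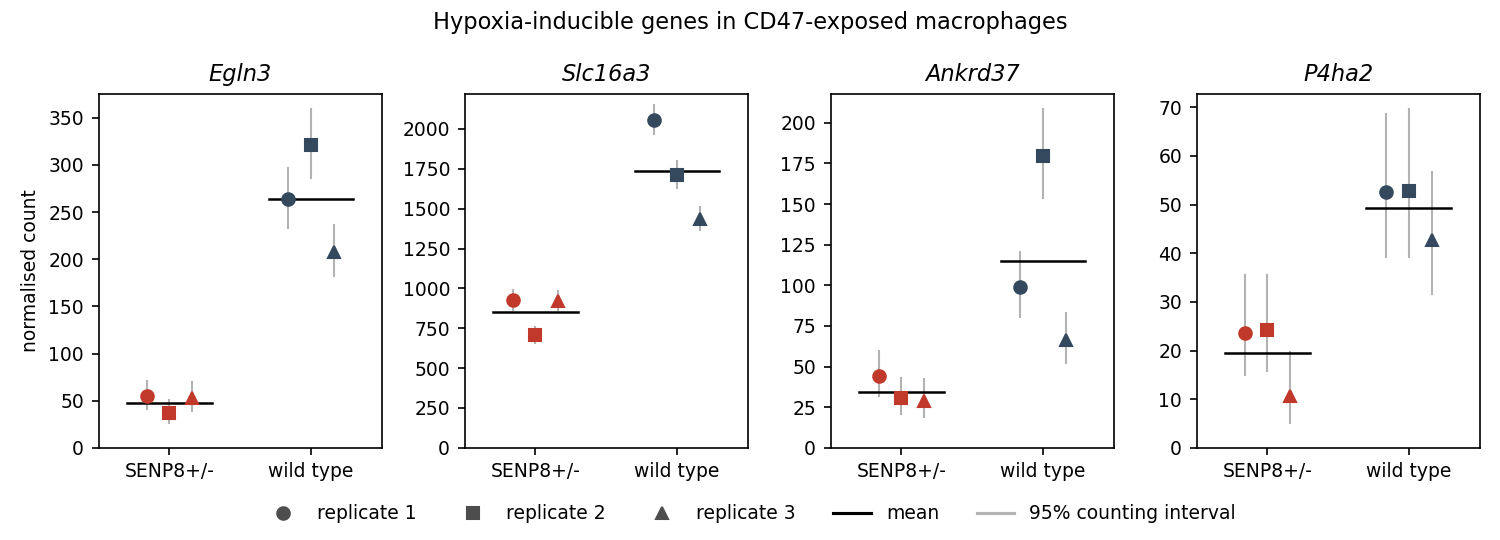
Normalised counts (y axis, from 0) of the 4 genes in each library of SENP8+/- (left, red) and wild type (right, dark blue) macrophages; markers are replicates, black lines means and grey lines exact 95% Poisson intervals for counting error. No gene's genotypes overlap at the authors' scaling, Ankrd37 has its highest value, 179, in wild type replicate 2, and Slc16a3, whose direction turns when the libraries are rescaled on the listed genes, lies between 707 and 924 in SENP8+/- and between 1437 and 2057 in wild type.

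For a single gene, 3 against 3 libraries can reach no two-sided exact permutation p under 0.10, and each of the 4 genes gave 0.10. The tools differed in how many of the 4 they called. The authors' deposited table called 3 and DESeq2, run on the recovered reads with the authors' size factors, also called 3. limma and edgeR's quasi-likelihood test each called 1, Egln3. The adjusted p-values of limma, edgeR and DESeq2 take genes that are not listed to have larger p-values, which can make them too large. The part of this in the difference between tools was not tested. As lower, edgeR called 21.6% and DESeq2 27.6% of the listed genes. edgeR gave adjusted p = 0.00191 for Egln3, 0.0984 for Slc16a3, 0.0695 for Ankrd37 and 0.150 for P4ha2, and DESeq2 gave 0.0397 for Slc16a3, 0.0131 for Ankrd37 and 0.265 for P4ha2. The fold changes themselves lay close together, from -1.73 to -1.61 on the log2 scale for Ankrd37, where they differed most.

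**Figure D3:**
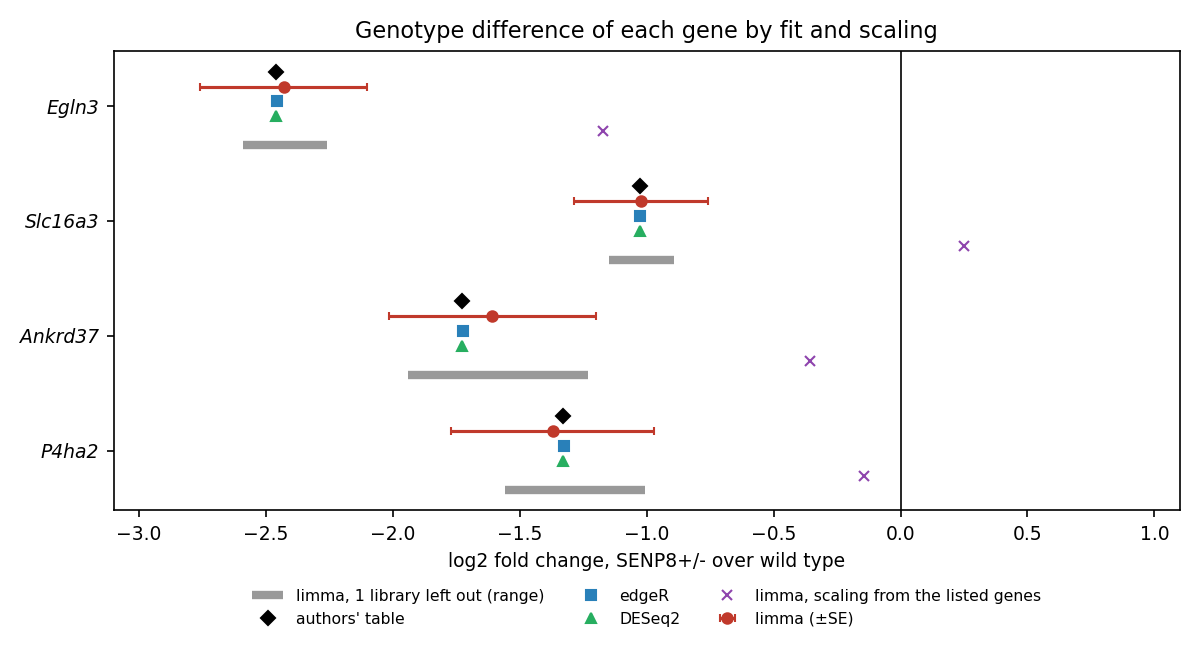
Log2 fold changes (x axis, SENP8+/- over wild type) of the 4 genes in the authors' deposited table, by limma with its SE, by edgeR and by DESeq2, with the limma range when 1 library is left out (grey bars) and limma after rescaling on the listed genes (crosses). The estimates at the authors' scaling lie together for each gene, from -2.46 to -2.43 for Egln3, while rescaling moves each toward 0 and Slc16a3 past it, to 0.25.

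Levels of different genes can be compared per length. Slc16a3 stood highest in all 6 libraries at 160 ± 23.5 normalised counts per kb of gene length in SENP8+/- and 326 ± 58.4 in wild type, and P4ha2 lowest at 3.13 ± 1.22 in SENP8+/- and 7.91 ± 0.910 in wild type. Egln3 and Ankrd37 lay between them and did not differ beyond their spread. Egln3 had 18.1 ± 3.56 normalised counts per kb in SENP8+/- and 99.2 ± 21.2 in wild type, and Ankrd37 had 22.5 ± 5.45 in SENP8+/- and 74.7 ± 37.8 in wild type. Egln3 was above Ankrd37 in the 3 wild type libraries and in SENP8+/- replicate 3, and below it in SENP8+/- replicates 1 and 2.

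A ratio of 2 genes within a library shows whether the genes changed unequally, and it depends on the scaling between libraries only through the 1 added to each normalised count. The log2 ratio of Egln3 to Slc16a3, from normalised counts with this 1 added, was -4.13 ± 0.08 in SENP8+/- and -2.72 ± 0.28 in wild type. The difference of -1.41 left the genotypes without overlap (two-sided exact permutation p = 0.10, adjusted p = 0.30 over 6 pairs). Egln3 to P4ha2 was 1.32 ± 0.81 in SENP8+/- and 2.38 ± 0.18 in wild type, apart only through the added 1. With nothing added, a choice made after seeing the data, SENP8+/- replicate 3, which has 10 reads of P4ha2, stood at 2.29 and wild type replicate 3 at 2.28, so the genotypes overlapped (exact permutation p = 0.20, adjusted p = 0.30 over 6 pairs, against 0.10 and 0.30 with the 1 added). Egln3 to Slc16a3 stayed apart, with a difference of -1.43. The other 4 pairs overlapped between genotypes either way. Egln3 to Ankrd37 differed by -0.82 (exact permutation p = 0.20), Slc16a3 to Ankrd37 by 0.59 (exact permutation p = 0.30), Ankrd37 to P4ha2 by -0.24 (exact permutation p = 0.60) and Slc16a3 to P4ha2 by 0.35 (exact permutation p = 0.70). With 3 libraries a genotype the exact permutation test could not pass 0.05 for any pair. In means, Egln3 was lower relative to each of the other 3 genes in SENP8+/-, with differences of -1.41 to -0.82 on the log2 scale. These differences restate limma's log2 fold changes, of which that of Egln3 was the most negative, and are no separate evidence. The genotypes were apart with and without the added 1 for 1 of the 3 ratios, that to Slc16a3. How often other pairs of listed genes are apart was not tested.

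**Figure D4:**
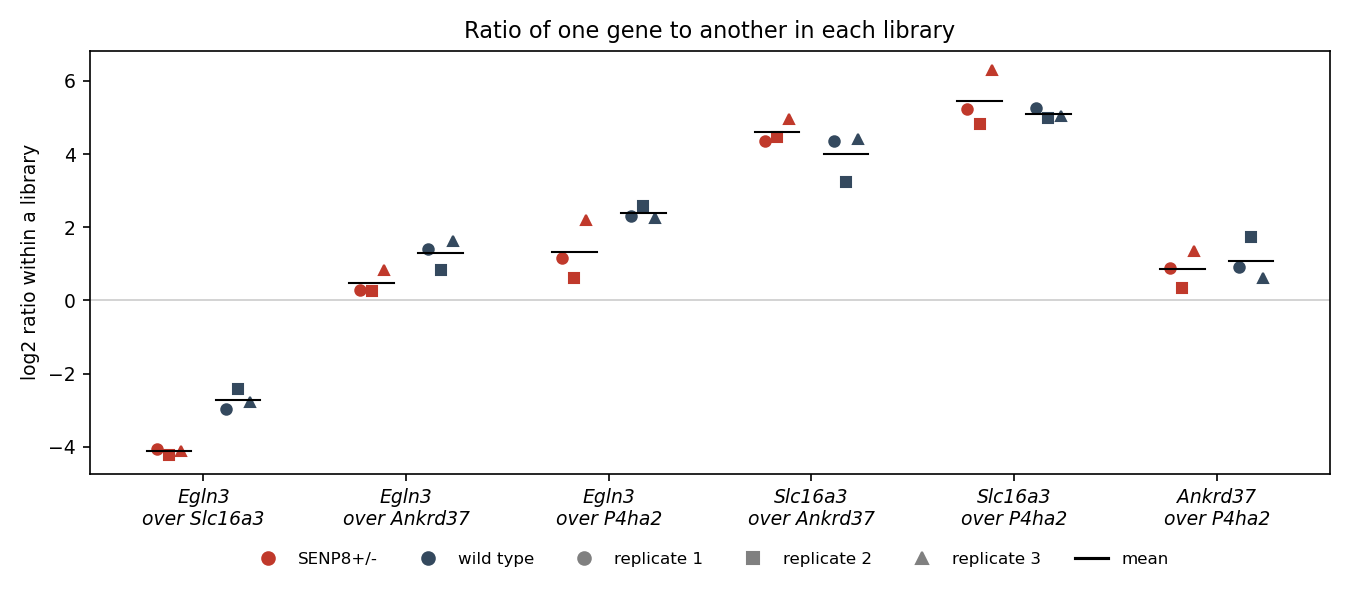
Log2 ratio of one gene to another within each library (y axis), with 1 added to each normalised count, for the 6 pairs, SENP8+/- in red at the left and wild type in dark blue at the right of each pair, with replicates as markers and means as black lines. The genotypes are apart for Egln3 over Slc16a3 (mean -4.13 in SENP8+/- and -2.72 in wild type) and overlap for 4 pairs, and Egln3 over P4ha2 (1.32 in SENP8+/- and 2.38 in wild type) is apart here but overlaps when nothing is added.

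The same wild type library was lowest in all 4 genes at the authors' scaling. Wild type replicate 3 had the lowest wild type value of Egln3, Slc16a3, Ankrd37 and P4ha2, as it had for 46.0% of the 569 listed genes that lay lower. In reads before scaling, wild type replicate 2 was lowest for Slc16a3, with 1622 reads against 1645 in replicate 3. Without replicate 3, limma's log2 fold change was -1.15 for Slc16a3 (adjusted p = 0.0432) and -1.94 for Ankrd37 (adjusted p = 0.04996), and both then passed, close to the threshold. In that fit limma called 154 of the 714 listed genes lower, against 149 with all 6 libraries. Wild type replicate 2 was highest for Egln3, Ankrd37 and P4ha2, and wild type replicate 1 for Slc16a3 and, in reads before scaling, also for P4ha2, with 53 reads against 50 in replicate 2. Among the SENP8+/- libraries, replicate 2 was lowest for Egln3 and Slc16a3 and replicate 3 for Ankrd37 and P4ha2.

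In the list of 46 hypoxia target genes 10 were listed, all lower in SENP8+/- at the authors' scaling, and 6 of them fell, against 33.9% of all listed genes. Rescaling on the listed genes raised log2 fold changes by a median of 1.21 by construction. It turned the sign of 147 of the 714 listed genes, Gys1 and Flt1 among them. The median log2 fold change of the 10 in the authors' deposited table was -2.20, against -1.71 for the 569 listed genes that lay lower. The list holds Egln3, Ankrd37 and P4ha2 and was chosen with earlier results of these data known. Its share that fell and its median are therefore no test of hypoxia targets as a group. Slc16a3, at -1.03, is not in this list and so not in its median. Besides Egln3 and Ankrd37, the genes of the list that fell were Loxl2, Arg1, Nos2 and Gys1. Loxl2, a lysyl oxidase that crosslinks collagen, averaged 11.8 ± 4.04 in SENP8+/- and 190 ± 56.1 in wild type (adjusted p = 9.79e-18 in the authors' deposited table). Arg1, the arginase that competes with nitric oxide synthase for arginine, averaged 1289 ± 101 in SENP8+/- and 7823 ± 3356 in wild type. Nos2, the inducible nitric oxide synthase, averaged 8.39 ± 6.33 in SENP8+/- and 112 ± 53.4 in wild type, 13.4-fold lower, or 23.1-fold lower when SENP8+/- replicate 1 was left out. Gys1, a glycogen synthase, averaged 158 ± 24.5 in SENP8+/- and 337 ± 61.9 in wild type (adjusted p = 0.00404 in the authors' deposited table). limma called 4 of the 10, Egln3, Loxl2, Arg1 and Nos2, and called 20.9% of all listed genes lower.

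The other 4 listed hypoxia targets did not pass. P4ha2 is given above. Edn1, which encodes the vasoconstrictor endothelin, averaged 4.65 ± 1.26 in SENP8+/- and 18.0 ± 3.59 in wild type. Flt1, a receptor for VEGF, averaged 185 ± 31.7 in SENP8+/- and 399 ± 209 in wild type and overlapped between genotypes. Ppp1r3c, a glycogen-targeting phosphatase subunit, had 0 reads in the SENP8+/- libraries and 3.31 ± 3.20 normalised counts in wild type. The glycolysis and lactate transport list had 24 genes, of which only Slc16a3 was listed. Of 17 genes of the HIF machinery only Egln3 was listed, so Hif1a, Vhl and the other prolyl hydroxylases Egln1 and Egln2 are not analysed here. The neddylation and cullin list of 33 genes had 0 listed members. Nothing follows about genes outside the list, which may have missed either limit of the selection, may not have been tested, or were not used here.

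**Figure D5:**
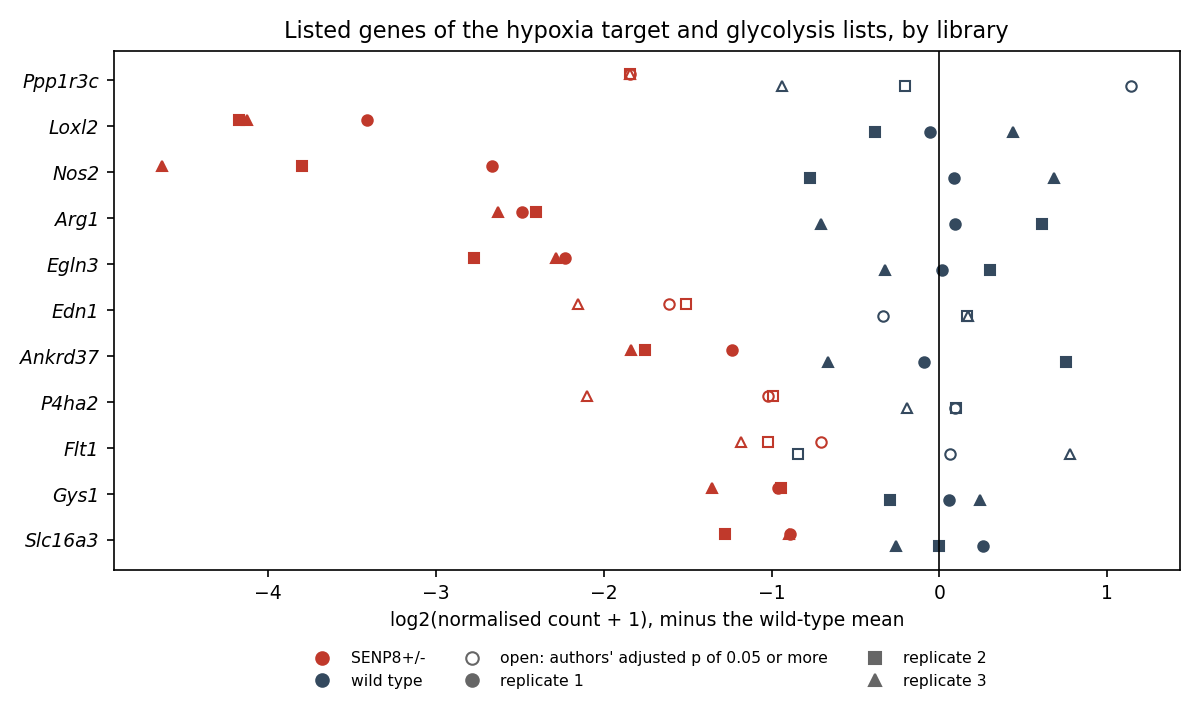
Log2(normalised count + 1) of the listed genes of the hypoxia target and glycolysis lists in each library, minus the wild type mean of the gene (x axis), with SENP8+/- in red above and wild type in dark blue below and open markers for genes with an adjusted p of 0.05 or more in the authors' deposited table. At the authors' scaling all SENP8+/- values of the 11 genes lie left of 0, Flt1 overlaps between genotypes, and Slc16a3, Gys1 and Flt1 turn sign when the libraries are rescaled on the listed genes.

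P4ha2 acts on collagen, and genes of that process were listed with it. In a list of 24 hydroxylase and collagen processing genes 6 were listed, all lower in SENP8+/- at the authors' scaling. Of these, 3 fell, namely Loxl2, Loxl3 and Col3a1, against 33.9% of all listed genes. This list too was chosen with earlier results of these data known. Col1a1 and Col1a2 were among the genes whose sign the rescaling turned. limma called 1 of the 6, Loxl2, against 20.9% of all listed genes called lower, and gave adjusted p = 0.0628 for Loxl3 and 0.180 for Col3a1. Loxl3, another lysyl oxidase, averaged 57.3 ± 14.6 in SENP8+/- and 153 ± 19.3 in wild type (adjusted p = 5.52e-04 in the authors' deposited table). Col3a1, a fibrillar collagen chain, averaged 82.3 ± 20.9 in SENP8+/- and 299 ± 192 in wild type. Col1a1 and Col1a2 overlapped between genotypes and did not pass.

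The listed markers of other cell types had lower means in SENP8+/- at the authors' scaling, as 79.7% of all listed genes did. Nothing follows about the markers that were not listed. In these bulk samples fewer cells of a type and less RNA per cell cannot be told apart. Of 14 stromal markers 9 were listed, all with a lower mean (Col1a1, Col1a2, Dcn, Pdgfra and Fbn1 turned sign under the rescaling). Of the 9, 3 fell, against 33.9% of all listed genes, and 4 did not overlap between genotypes, against 70.6% that lay wholly lower. Their summed level was 397 to 722 normalised counts in SENP8+/- libraries and 723 to 1805 in wild type libraries. Of 10 T and NK cell markers 6 were listed, all lower, and 4 of these fell, against 33.9% of all listed genes. Their sums were 13.02 to 19.6 in SENP8+/- and 102 to 181 in wild type, and Gzma and Ncr1 had 0 reads in all SENP8+/- libraries. Of 10 neutrophil markers 3 were listed, and all 3 fell, against 33.9% of all listed genes, with sums of 358 to 561 in SENP8+/- and 1187 to 1566 in wild type. These sums are almost wholly Csf3r, at 357 to 559 in SENP8+/- and 1147 to 1553 in wild type. Retnlg had 0 reads in all SENP8+/- libraries. The dendritic cell marker Clec9a was the 1 listed of 6, at 9.30 to 16.5 in SENP8+/- and 75.3 to 96.1 in wild type. Klf1 was the 1 listed of 5 erythroid markers, at 0 to 1.86 in SENP8+/- and 1.75 to 9.50 in wild type. It overlapped between genotypes and did not pass. The macrophage markers C1qa and C1qc, 2 listed of 10, were present in every library, with sums of 8169 to 11604 in SENP8+/- and 10922 to 24342 in wild type that overlapped, and both genes turned sign under the rescaling. The part of these cell types in the levels of Egln3, Slc16a3, Ankrd37 and P4ha2 was not tested.

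The listed genes whose pattern across the 6 libraries was most like that of each of the 4 were ranked by Pearson's r on log2(normalised count + 1) over 331 other genes with a mean of at least 26.8. For Egln3 they were Il18bp, which encodes a protein that neutralises interleukin 18 (r = 0.997), the chemokine Cxcl9 (r = 0.996) and the cell cycle inhibitor Cdkn1a (r = 0.995). For Slc16a3 they were the complement protease C1s1, which has a near-identical copy and whose reads are therefore uncertain (r = 0.992), the MHC class II chain H2-Ab1 (r = 0.990) and the chemokine Ccl22 (r = 0.989). For Ankrd37 they were the lysosomal protease Ctsf (r = 0.983), the nucleotide sugar receptor P2ry14 (r = 0.982) and Lrrc39 (r = 0.981). For P4ha2 they were the membrane protein Ms4a4a (r = 0.988), the receptor subunit Il12rb1 (r = 0.984) and the transporter Slc6a12 (r = 0.959). No other member of the 4 was among them. Such values describe a shared split between genotypes, since every listed gene was selected for one. Of the 331 genes, 47.4% had r over 0.9 with Egln3, 38.7% with Slc16a3, 26.6% with Ankrd37 and 7.25% with P4ha2.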

How the data were processed

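RNA was sequenced in 6 libraries. Per the labels' protocols, poly(A) mRNA was purified on poly-T beads and primed at random. The submitters' processing notes name HISAT2 2.0.5 and featureCounts 1.5.0-p3. For the build, annotation, counting settings and the authors' test: not given in the sources used here. The deposited table holds, per library, a signal made by the authors from read counts and 1 size factor, and, per the file headers, their log2 fold change of SENP8+/- over wild type, p-values, adjusted p-values and gene positions. All values (100%) were whole multiples of a step per library within 1e-06 of a read, which gave back the reads. The step of wild type replicate 1 is close to 1, but its values are not rounded. GENCODE M21 (GRCm38) held 713 of the 714 gene IDs, 686 at the same position, the 4 genes included. The number of columns from outside the series was 0.

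In R 4.3.3, log2(value + 1) was fitted with limma 3.58.1 (trended empirical Bayes) over all 714 genes, a scale that understates changes of low genes. Its p-values, and those of edgeR 4.0.16 (quasi-likelihood) and DESeq2 1.42.0 on the recovered reads, were adjusted by Benjamini-Hochberg over the 14694 genes of the authors' correction, with unlisted genes taken to have larger p-values. By the authors' own adjusted p-values, some unlisted genes had smaller p-values than listed ones. The adjusted p-values of limma, edgeR and DESeq2 given here can therefore be too large. limma called 176 listed genes, edgeR 180 and DESeq2 235. The fits were also run on simulated data, in which genes were not selected for a difference. That run cannot show how the p-values behave on this selected list. Since the list was selected on the comparison tested, its effects are on average too large, and it can give neither depth nor a scaling. Genes named are the 4, the listed genes of the pathway lists and the 3 genes most like each of the 4. The members and lists were chosen with earlier results of these data known. RefSeq promoter windows were matched by symbol for 4 of 4 genes. Only 492 of 714 listed genes had one, so the motif shares of listed genes cover these alone. Alternatives were other pseudocounts, a filter on low values, other scalings and tools, no trend, a replicate block, each library left out, and adjustment over the listed genes only.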

Additional observations from a re-analysis of the deposited data

How the results depend on the processing

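The log2 fold changes of Egln3, Ankrd37 and P4ha2 kept their sign under all 17 alternatives, and that of Slc16a3 under 16. Rescaling on the listed genes, which were selected for their difference, raised the log2 fold change of listed genes by a median of 1.21 and left -1.17 for Egln3 (no longer past the threshold), 0.25 for Slc16a3, -0.36 for Ankrd37 and -0.14 for P4ha2. It called 0 of the 4 genes and 20 listed genes lower of 155 called (12.9%), against 149 lower of 176 (84.7%) by limma at the authors' scaling, where 1 of the 4 was called. DESeq2 called 3 of the 4, with -1.03 for Slc16a3 and -1.73 for Ankrd37. The authors' deposited table called 3 as well, with -1.03 and -1.73, and 242 listed genes lower of 295. Adjustment over the listed genes only, which takes the selected list as all that was tested, called 4 of the 4 (-1.02 for Slc16a3, -1.61 for Ankrd37, -1.37 for P4ha2) and 556 listed genes lower of 701. With 1 library left out, limma's log2 fold changes ranged from -2.59 to -2.26 for Egln3, -1.15 to -0.89 for Slc16a3, -1.94 to -1.23 for Ankrd37 and -1.56 to -1.01 for P4ha2. The number of the 4 called ranged from 0 (when SENP8+/- replicate 2 or wild type replicate 1 was left out) to 3 (without wild type replicate 3). Listed genes called ranged from 11 to 181, of which 7 to 154 lower. Leaving out a SENP8+/- library gave 100 calls for replicate 1, 37 for replicate 2 and 87 for replicate 3. Leaving out a wild type library gave 11 for replicate 1, 112 for replicate 2 and 181 for replicate 3. The difference in the log2 ratio ranged from -0.078 to 0.67 for Slc16a3 over P4ha2 (-0.078 without SENP8+/- replicate 3) and from -0.49 to 0.091 for Ankrd37 over P4ha2 (0.024 leaving out SENP8+/- replicate 2 and 0.091 leaving out wild type replicate 2), and the other 4 ratios kept their sign. With nothing added to the values, all 6 kept theirs. The cause of these changes was not tested, apart from the rescaling and the adjustment, which change the values by construction. Same-numbered libraries did not deviate together over the listed genes (r = 0.01, 0.04 and -0.24 for numbers 1, 2 and 3, against -0.24 to 0.22 for unlike numbers). No pairing by number was seen, but 3 libraries a genotype cannot exclude one, and the labels used here give none. The fit with the replicate block called 174 listed genes and 1 of the 4, Egln3, at -2.43 (adjusted p = 0.00638). Depth limits P4ha2 most, at 59 reads in the SENP8+/- and 152 in the wild type libraries.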
